A study of Mus musculus with 4 samples.

Results

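Methylation of CpG sites was described for 34 mouse genes of the receptors for glutamate and gamma-aminobutyric acid (GABA), out of 21938 protein-coding genes of GENCODE release M21. The members were taken by gene symbol and comprised 16 ionotropic glutamate receptor genes, 7 metabotropic glutamate receptor genes and 11 GABA receptor genes. For each gene, CpG sites within 1 kb of the start site and sites in the rest of the gene body were kept apart. The 4 libraries, 1 per condition, were made by reduced representation bisulfite sequencing (RRBS) from ESCs of the lines R1 and Tet/Tet and from neurons of the same pair of lines. Values listed in library order give the R1 ESC level first, then the Tet/Tet ESC, the R1 neuron and the Tet/Tet neuron level. R1 is the wild-type mouse embryonic stem cell line. The Tet/Tet line (genotype Dnmt1 Tet/Tet) carries tet-off constructs placed at Dnmt1 in R1 cells, and its ESCs and neurons overproduce DNMT1, the enzyme that copies methylation onto newly replicated DNA. Tet/Tet ESCs were kept in puromycin at 1 µg/ml and neomycin at 150 µg/ml. Neurons of either line came from embryoid bodies after 2 days without LIF, followed by neural induction in NDiff227 medium for 10 to 15 days. Tet/Tet is a single line, and no step that separated neurons from other cells of the culture is given in the sources used here.

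Glutamate is the main excitatory transmitter of the brain and GABA the main inhibitory one. Ionotropic glutamate receptors (the AMPA, kainate, delta and NMDA families) and GABA-A receptors are channels assembled from subunits that different genes encode, whereas metabotropic glutamate receptors and GABA-B receptors act through G proteins. Methylation in mammals is mostly at CpGs: CpG islands at gene starts are typically unmethylated whether or not the gene is expressed, while gene bodies usually carry methylation. The tables hold methylation only and say nothing of how strongly any receptor was expressed.

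No condition had a replicate library, so differences were described and not tested. A value here is the unweighted mean of the percent methylation of a gene's CpGs listed in all 4 tables, and the SD given is that over sites. The tables give no read numbers, so the depth behind each site is unknown and no interval for it can be given. They listed between 2310510 and 5295489 CpGs on chromosomes 1 to 19, X and Y. Tet/Tet neurons were not analysed here on chromosomes 8 and 9, on chromosome 7 beyond position 55762981 and on chromosome 10 before position 128096803. Gria4, Grik2, Grik4, Grin3b, Grm5, Grm2, Gabra5 and Gabrg3 lie there and were described from CpGs listed in the other 3 libraries. The libraries of ESCs were sequenced in another project than those of neurons, so cell type and project cannot be told apart. Mitochondrial CpGs read 3.19%, 7.37%, 15.9% and 6.27% in library order, and the part of this in the higher values of R1 neurons was not tested. Among 3 pluripotency genes with at least 10 start sites the R1 neuron level ran from 13.8% to 76.8%. Among 4 neuronal genes it ran from 3.52% to 18.3%. In R1 ESCs these ranges were 1.90% to 39.4% and 1.83% to 7.52%. In Tet/Tet neurons they were 5.44% to 9.84% over 2 pluripotency genes and 1.91% to 6.27% over 3 neuronal genes. Methylation of these markers does not measure which cells were present.

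Stretches that carry the results are printed here from the GRCm38 (mm10) sequence, each on the strand of its gene from 5′ to 3′, with capitals marking the CpGs listed in all 4 tables. The first pair lies within 1 kb of a start site and shows a partial gain in R1 neurons, for Grin2c (chr11:115266786-115266981, minus strand, intron) and for Gabra2 (chr5:71095256-71095394, minus strand, intron).
Grin2c: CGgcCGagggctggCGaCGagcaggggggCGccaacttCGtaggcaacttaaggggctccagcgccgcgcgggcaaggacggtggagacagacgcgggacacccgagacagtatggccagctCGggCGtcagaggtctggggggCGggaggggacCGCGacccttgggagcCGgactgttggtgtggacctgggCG
Gabra2: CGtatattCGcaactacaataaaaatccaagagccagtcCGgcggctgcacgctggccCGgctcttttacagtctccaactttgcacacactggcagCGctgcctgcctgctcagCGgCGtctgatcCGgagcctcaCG

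The next stretches lie in coding exons and show how far apart CpG-dense parts of these genes could be. They are Grm4 (chr17:27502855-27502980, minus strand), exon 2 of Grin2d (chr7:45862173-45862354, minus strand) and exon 1 of the same Grin2d transcript (chr7:45866337-45866529, minus strand).
Grm4: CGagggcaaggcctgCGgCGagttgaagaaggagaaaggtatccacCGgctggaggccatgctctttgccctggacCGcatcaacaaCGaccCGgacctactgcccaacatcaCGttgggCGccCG
Grin2d exon 2: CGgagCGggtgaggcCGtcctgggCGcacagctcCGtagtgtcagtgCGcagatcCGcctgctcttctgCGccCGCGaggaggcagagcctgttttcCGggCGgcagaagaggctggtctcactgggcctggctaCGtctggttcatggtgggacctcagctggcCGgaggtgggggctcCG
Grin2d exon 1: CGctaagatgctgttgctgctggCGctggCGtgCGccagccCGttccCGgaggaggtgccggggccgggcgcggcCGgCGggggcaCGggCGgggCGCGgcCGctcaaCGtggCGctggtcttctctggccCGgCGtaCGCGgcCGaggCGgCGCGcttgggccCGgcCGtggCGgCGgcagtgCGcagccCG

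The last pair comes from stretches outside UTRs in members analysed in all 4 libraries. Among those of at least 8 sites, the stretch in the last coding exon of Grin2b (chr6:135732288-135732473, minus strand) had the largest excess of Tet/Tet over R1 ESCs. Among those of at least 6 sites, the stretch in an intron of Grid1 (chr14:35403592-35403628, plus strand) had the highest level in Tet/Tet neurons.
Grin2b: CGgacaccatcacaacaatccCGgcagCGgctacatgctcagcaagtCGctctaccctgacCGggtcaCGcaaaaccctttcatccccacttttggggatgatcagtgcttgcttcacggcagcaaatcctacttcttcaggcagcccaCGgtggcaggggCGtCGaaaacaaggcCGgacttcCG
Grid1: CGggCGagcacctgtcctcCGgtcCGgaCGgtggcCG

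Receptor gene starts were nearly unmethylated in ESCs of either line. Of the 34 members, 26 had at least 10 shared sites within 1 kb of the start, 13 of them ionotropic, 6 metabotropic and 7 GABA receptor genes. Their median level was 2.93% in ESCs of R1 and 3.13% in those of Tet/Tet, beside 2.37% and 2.59% for all genes with that many sites. Under 10% were 25 of the 26 in R1 ESCs and all 26 in Tet/Tet ESCs. The exception was Grik5, which encodes a high-affinity kainate receptor subunit, at 10.1% in ESCs of R1 and 8.15% in those of Tet/Tet. Its window also reaches over the start of Zfp574, 221 bp away on the other strand. No member differed by 10 points or more between the ESC libraries, where 1.06% of all genes were higher and 0.466% lower in Tet/Tet ESCs.

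In R1 neurons most receptor gene starts were somewhat higher, and those of 5 members by at least 10 points. The median over the 26 members was 6.91%, beside 4.55% for all genes, and R1 neurons had the highest level of the libraries used in 24 of the 26. The share of all genes with that order was not computed, and Gabra4 and Gabrb1, which share their sites, both count among the 26. The 5 of 26 were Grin3b, Grin1, Grin2c, Grm5 and Grm4, where 20.2% of 12887 genes were higher by that much, so the share was near the background. None was lower by 10 points, beside 0.0776% of all genes. The count depended on the sites used, with 3 members when 20 sites were required and 10 when 1 site per 100 bp was kept. These alternative settings were run on the members only, so no share of all genes is given for them. In Tet/Tet neurons the 18 members with sites in all 4 libraries had a median of 3.03%, beside 2.64% for all genes, and every one was under 10%.

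**Figure D1:**
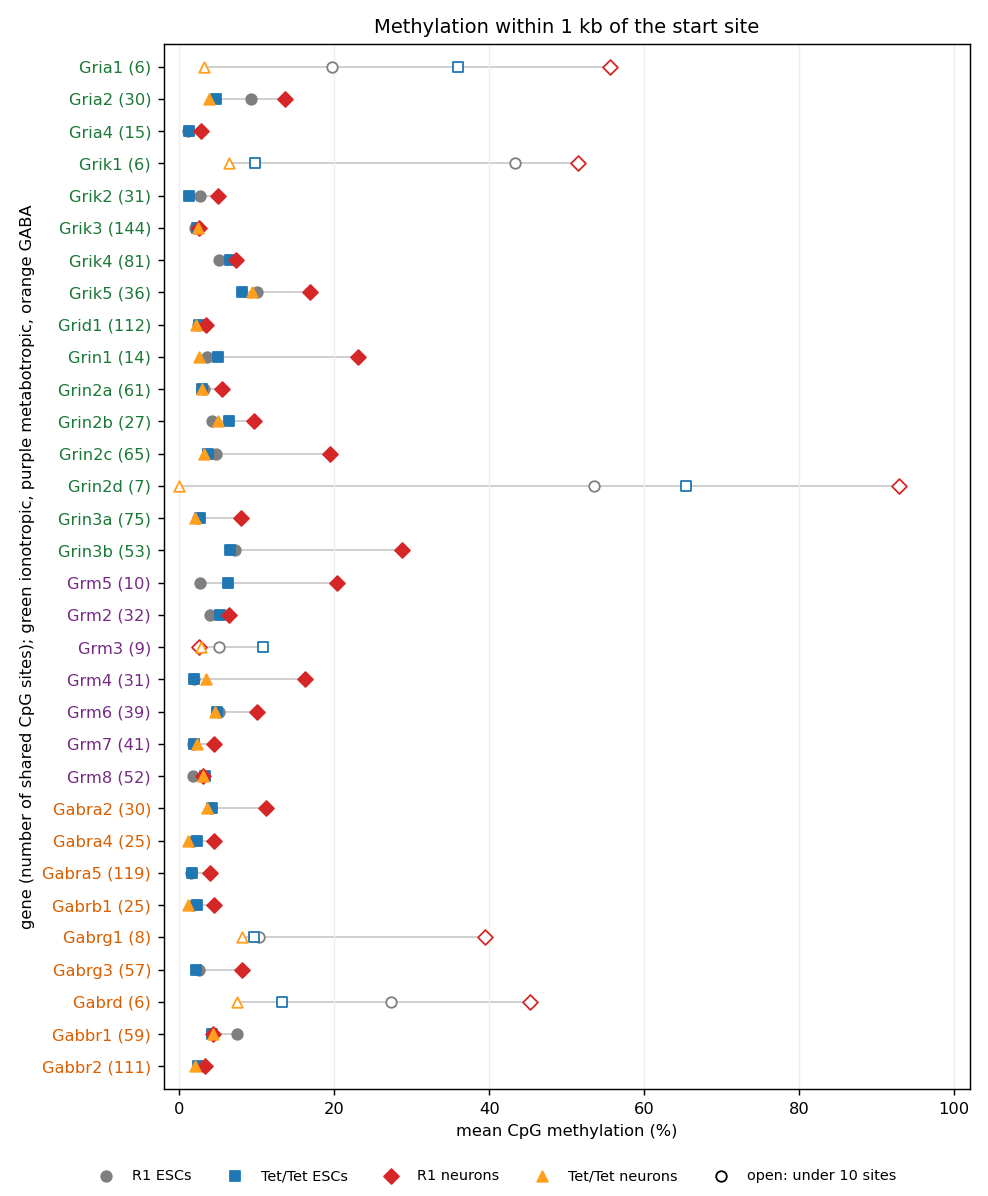
Mean CpG methylation (%) within 1 kb of the start site of each receptor gene, with 1 marker per library and the number of shared sites in brackets. Open markers are genes under 10 sites, which were not counted, and Gabra6 and Gabrb2 had no shared site. R1 neurons reach 28.8% in Grin3b among the counted genes, while all Tet/Tet neuron values of counted genes are under 10%.

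NMDA receptor genes held 3 of the 5. NMDA receptors need both glutamate and glycine to open, and Grin1 encodes the glycine-binding subunit that all of them share. The gene lies on chr2:25291181-25319187, minus strand. Its 14 sites averaged 3.57%, 5.00%, 23.1% ± 34.1 (SD over sites) and 2.53% in library order. The gain was uneven, since 2 sites between 521 and 562 bp upstream read 100% in R1 neurons, 5 sites between 132 and 178 bp upstream averaged 19.9% and 7 sites downstream of the start averaged 3.34%. Thus the R1 neuron value of Grin1 leans on those 2 upstream sites, which averaged 25% in R1 ESCs and 10% in ESCs and neurons of Tet/Tet.

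Grin2c, which encodes a glutamate-binding NMDA subunit best known from the cerebellum, was higher in R1 neurons at nearly all of its listed sites, which run from 21 bp upstream to 719 bp downstream. The gene lies on chr11:115249169-115267243, minus strand. Its 65 sites averaged 4.70%, 3.77%, 19.4% ± 18.3 and 3.17% in library order. R1 neurons were above R1 ESCs at 63 of the 65 sites, and Tet/Tet neurons were below R1 neurons at all 65. The 55 sites up to 457 bp downstream averaged 13.3% in R1 neurons and the 10 sites between 574 and 719 bp downstream 53.4%, so the level was higher farther from the start. That order was not particular to R1 neurons. The same parts averaged 2.42% and 17.3% in R1 ESCs and 1.45% and 16.6% in Tet/Tet ESCs. In Tet/Tet neurons they averaged 2.40% and 7.37%. In the printed Grin2c stretch, the 13 listed CpGs ran from 1.72% to 47.3% in R1 neurons, and their range in Tet/Tet neurons was 0% to 11.8%.

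Grin3b, which encodes a glycine-binding NMDA subunit, had the highest start-site level of the 26 members in R1 neurons. The gene lies on chr10:79970715-79977190, plus strand. Its 53 sites averaged 7.23%, 6.54% and 28.8% ± 24.1 in the first 3 libraries of that order, and R1 neurons were above R1 ESCs at all 53. Here the level fell away from the upstream side. The 4 sites upstream averaged 93.0% in R1 neurons, against 37.8% in R1 ESCs, the 6 sites between 76 and 156 bp downstream 48.4%, and the 43 sites from 251 to 609 bp downstream 20.1%. The other NMDA genes with at least 10 start sites were lower: Grin2a, Grin2b and Grin3a read 5.56%, 9.66% and 7.92% in R1 neurons, above the 3.01%, 5.07% and 2.08% of Tet/Tet neurons.

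**Figure D2:**
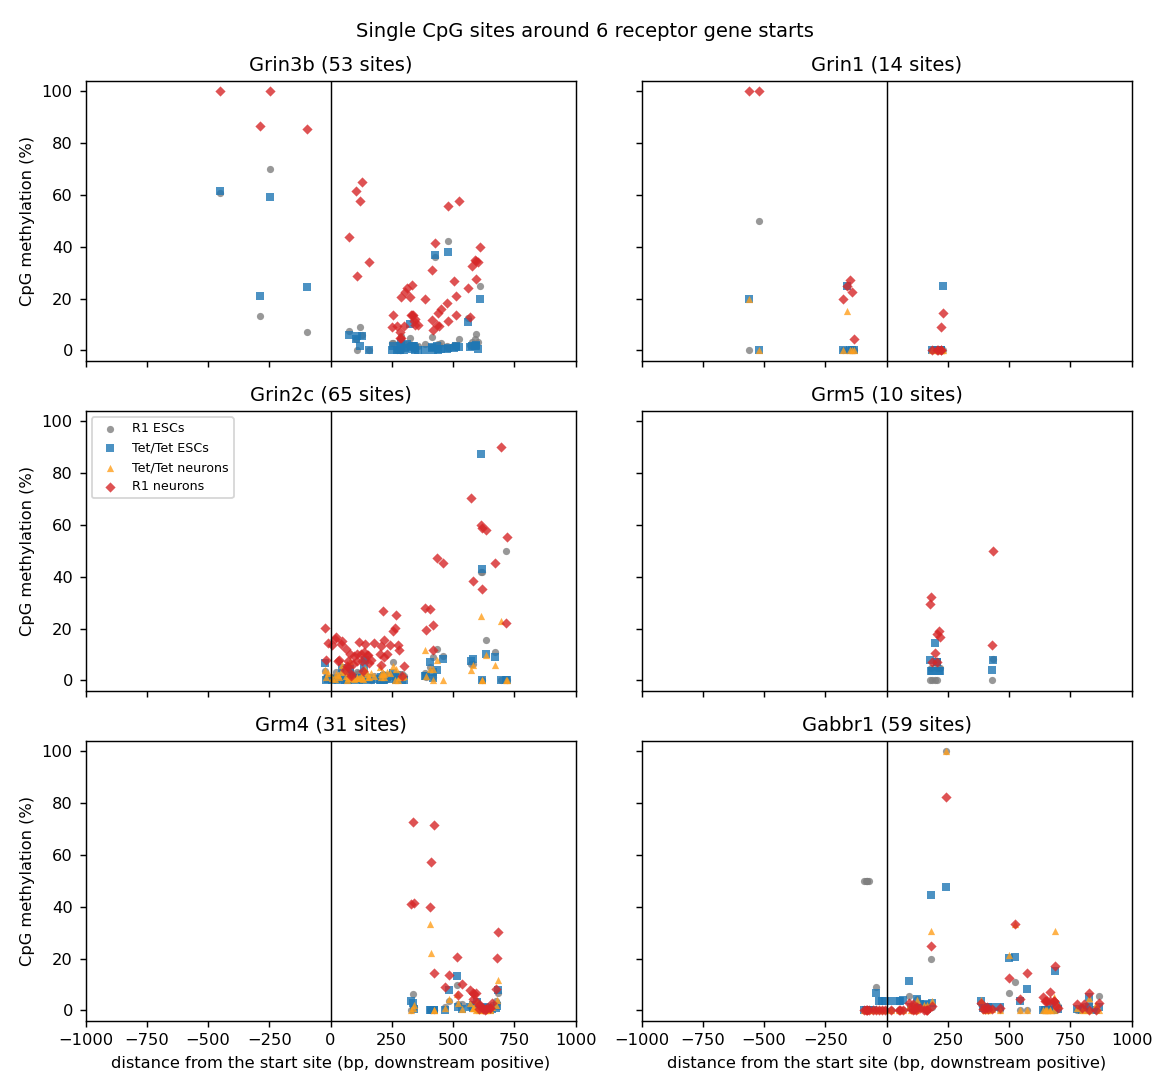
Methylation (%) of single CpG sites against distance from the start site (bp) for the 5 genes that were at least 10 points higher in R1 neurons than in R1 ESCs and for Gabbr1. In Grin2c the red R1 neuron points climb with distance downstream, in Grin3b they are highest upstream, and in Gabbr1 they stay near 0% around the start.

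Among the remaining ionotropic receptor genes with at least 10 start sites, none changed by 10 points in any comparison. Gria2, whose product makes AMPA receptors impermeable to calcium, averaged 9.26%, 4.802%, 13.6% and 3.86% over 30 sites in library order. Its AMPA partner Gria4 was among the lowest, at 1.08%, 1.22% and 2.85% in the 3 libraries used. The kainate receptor genes Grik3 and Grik2 and the delta receptor gene Grid1 stayed under 5% in every library analysed. Grik4, a high-affinity kainate subunit gene, lay between 5.12% and 7.38%. Grik5 reached 16.9% in R1 neurons, above the 9.37% of Tet/Tet neurons.

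Among metabotropic glutamate receptor genes, Grm5 and Grm4 moved most at the start. Grm5 encodes a group I receptor that couples to Gq, and its 10 sites averaged 2.74%, 6.24% and 20.4% ± 13.4 in the 3 libraries used, with R1 neurons above R1 ESCs at all 10. Grm4 encodes a presynaptic group III receptor that inhibits adenylyl cyclase, and its 31 sites averaged 1.93%, 1.87%, 16.2% ± 20.98 and 3.49% in the 4 libraries. In R1 neurons the 7 sites of Grm4 between 328 and 424 bp downstream averaged 48.3%, and the 24 sites from 469 to 683 bp averaged 6.85%, so most of its gain lay in the listed sites nearest the start. Grm5 lies on chr7:87584168-88134907, plus strand, and Grm4 on chr17:27422387-27521403, minus strand. Grm6, known from retinal ON bipolar cells, read 10.0% in R1 neurons and between 4.68% and 5.12% elsewhere. Grm7 and Grm8, the other group III genes, and Grm2, of group II, were under 7% in every library analysed.

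None of the 7 counted GABA receptor gene starts differed by 10 points in any comparison, few genes to set beside the 20.2% of all genes that were higher in R1 neurons than in R1 ESCs and the 20.7% that were lower in Tet/Tet than in R1 neurons. Gabra2, which encodes an alpha subunit of GABA-A receptors, came closest, with 4.05%, 4.18%, 11.2% ± 16.1 and 3.65% over 30 sites. In the Gabra2 stretch printed above, the 9 sites averaged 25.1% ± 17.8 in R1 neurons, against 2.12% ± 3.15 in Tet/Tet neurons. R1 neurons were above R1 ESCs at 8 of them, and the first site read 50% in R1 ESCs and 0% in R1 neurons. Gabra4 and Gabrb1 start on opposite strands 195 bp apart and share the same 25 sites, which read 1.82%, 2.30%, 4.43% and 1.18%. Gabra5, an alpha subunit gene prominent in the hippocampus, and Gabrg3, a gamma subunit gene, read 3.99% and 8.09% in R1 neurons. The genes of the GABA-B receptor, Gabbr1 for the GABA-binding subunit and Gabbr2 for the subunit that couples to the G protein, stood at 4.40% and 3.27% in R1 neurons.

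Of the 26 members, Gabbr1 alone was lower in R1 neurons than in R1 ESCs. Its 59 sites averaged 7.51%, 4.23%, 4.40% and 4.39%. The R1 ESC value came from 5 adjacent sites between 73 and 92 bp upstream that read 50% in R1 ESCs and 0% in each of the other libraries, and the remaining 54 sites averaged 3.58% in R1 ESCs.

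Tet/Tet neurons lay below R1 neurons at receptor gene starts, and the levels of Tet/Tet neurons were close to those of Tet/Tet ESCs. Grin1, Grin2c and Grm4, 3 of 18 members, were lower than in R1 neurons by at least 10 points, where 20.7% of 10326 genes were. None was higher, beside 0.0291% of all genes. With all sites that the 2 neuron libraries share, 8 members were lower by at least 10 points. More members can reach 10 sites that way, and the share of all genes was not computed for it. The median difference over the 18 members was -3.92 points, beside -1.76 points for all genes, and each of the 18 differences was negative, though those of Gabbr1 and Grm8 were under 0.1 points in size. The share of all genes with a negative difference was not computed. From Tet/Tet ESCs to Tet/Tet neurons the 18 members changed by between -2.47 and 1.62 points, so that none was called, beside 0.397% of all genes higher and 3.13% lower.

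The 8 members with fewer than 10 shared sites near the start were not counted. Gria1, an AMPA subunit gene without a CpG island within 1 kb, averaged 19.8%, 35.9%, 55.6% and 3.24% over 6 sites. Grin2d, whose annotated start also lacks an island and whose body overlaps Kdelr1, averaged 53.6%, 65.4%, 92.9% and 0% over 7 sites. Grik1 (6 sites), Gabrg1 (8 sites) and Gabrd (6 sites) read 51.5%, 39.5% and 45.3% in R1 neurons, against 6.44%, 8.11% and 7.42% in Tet/Tet neurons. Grm3, the other group II gene, stood between 2.54% and 10.9% over 9 sites, and Gabra6, a cerebellar granule cell subunit gene, and Gabrb2 had none. Within 1 kb of the start, 27 of the 34 members had an island and Gria1, Grin2d, Grm5, Grm3, Gabra6, Gabrb2 and Gabrg1 did not.

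Gene bodies behaved differently from starts. In ESCs they were partly methylated, with a median over the 30 members that had at least 10 shared body sites of 37.1% in R1 and 41.1% in Tet/Tet, beside 37.6% and 39.9% for all genes. In R1 neurons the median was 80.6%, beside 87.8% for all genes, and in Tet/Tet neurons it was 12.6% over 22 members, beside 15.0%. All 30 members were at least 10 points higher in R1 neurons than in R1 ESCs, where 94.3% of 12273 genes were. All 22 were lower by that much in Tet/Tet neurons than in R1 neurons, where 95.7% of 9768 genes were. No member moved the other way by 10 points, nor did any gene (0%). Nearly every gene moved in this way, so these counts do not distinguish the receptor genes.

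**Figure D3:**
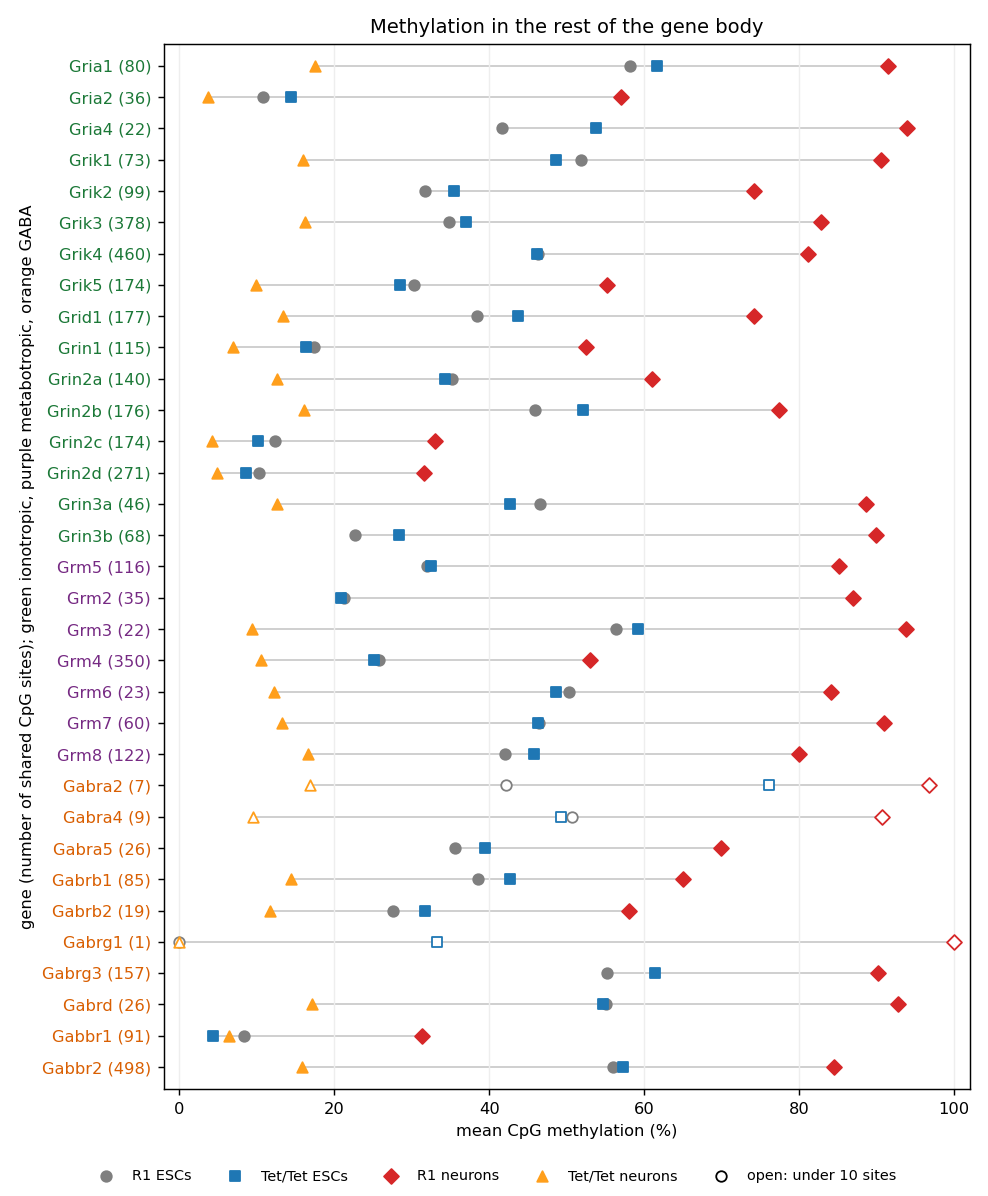
Mean CpG methylation (%) of each receptor gene body beyond 1 kb from the start, with 1 marker per library, the number of shared sites in brackets and open markers for genes under 10 sites. R1 neurons are highest and Tet/Tet neurons, where analysed, are lowest in every counted gene except Gabbr1, in which Tet/Tet ESCs at 4.32% lie below Tet/Tet neurons at 6.48%.

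The spread among members was wide. Class medians in library order were 35.0%, 36.2%, 75.8% and 12.6% for ionotropic, 42.1%, 45.8%, 85.2% and 12.2% for metabotropic and 38.5%, 42.6%, 69.9% and 14.4% for GABA receptor genes. The ranges of the 3 classes overlapped in every library, reaching in R1 neurons from 31.6% to 93.9%, from 53.0% to 93.8% and from 31.3% to 92.8%. Gabra2 (7 sites), Gabra4 (9 sites), Gabrg1 (1 site) and Gabra6 (none) had too few body sites to count. Near the top in R1 neurons were Gria4 at 93.9% (22 sites), Grm3 at 93.8% (22 sites) and Gria1 at 91.4% (80 sites). Gabrd, a subunit of extrasynaptic GABA-A receptors, stood at 92.8% (26 sites). At the bottom were Gabbr1 at 31.3% ± 36.3, Grin2d at 31.6% ± 34.5 and Grin2c at 33.0% ± 37.1. The greatest rises from R1 ESCs to R1 neurons were those of Grin3b, from 22.6% to 89.9%, and of Grm2, from 21.3% to 86.9%.

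How much of the listed body sequence was CpG island went with these levels. Islands held 72.4% of the body sites of Grin2c, 60.1% of Grin2d, 49.4% of Grik5, 47.4% of Grm4 and 44.0% of Gabbr1, but none of those of Gria1, Gria4, Grm3 or Gabrd. Across the 30 members, the share of sites in islands and the body level in R1 neurons had a Pearson's r of -0.658 and a Spearman's rho of -0.587, a description over genes measured in the same library. Outside islands the R1 neuron levels were 81.4% in Grin2c, 94.38% in Grik5 and 86.4% in Grm4, near the member median of 87.9%. Gabbr1 at 44.8% and Grin2d at 59.97% remained low outside islands. So did Gria2 at 57.0% (36 sites) and Gabrb2 at 58.1% (19 sites), whose bodies had no island site. In Gria2 the 3 stretches of 6 to 8 sites about 2 kb downstream of the start read 45.7%, 41.5% and 51.2% in R1 neurons and under 5% in Tet/Tet neurons.

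**Figure D4:**
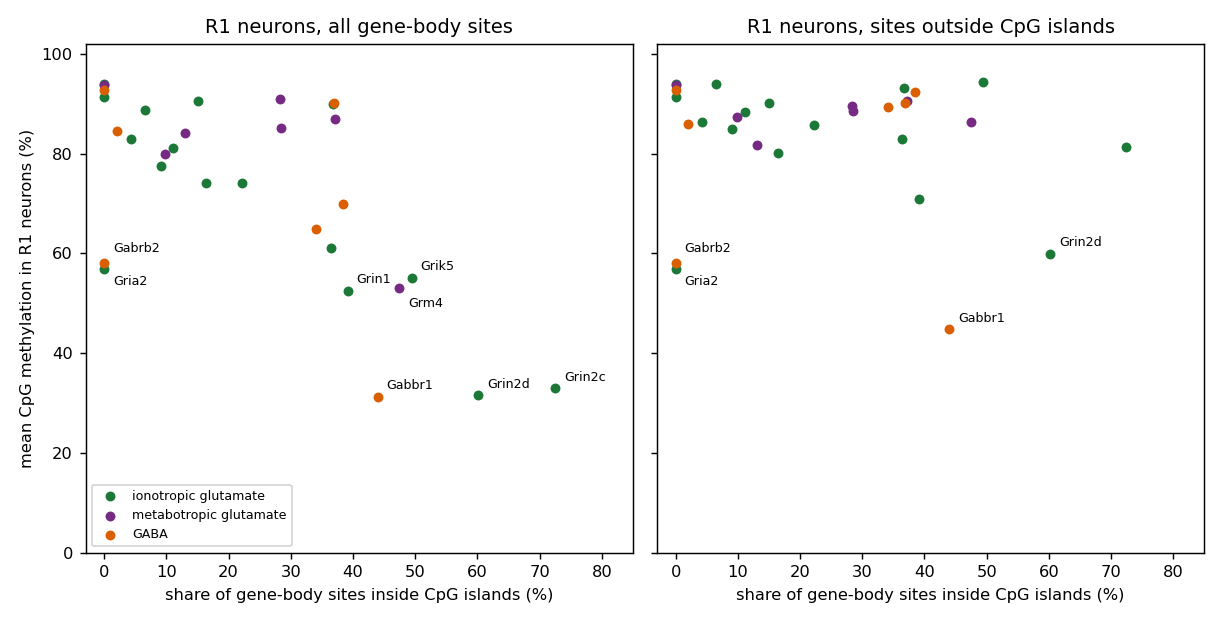
Body methylation in R1 neurons (%) against the share of body sites inside CpG islands (%) for the 30 counted receptor genes, over all body sites (left) and over sites outside islands (right). Genes under 60% are named: Grin2c, Grik5, Grm4 and Grin1 are among them on the left only.

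Islands inside receptor gene bodies did not share a single pattern. Of 39 islands with at least 5 shared sites, 27 were under 15% in both ESC libraries. In R1 neurons 10 of these 27 stayed under 10%, 12 lay between 10% and 50%, and 5 were at 50% or more, against 64.5%, 20.8% and 14.7% of the 4355 such islands of all protein-coding genes. The middle range thus held 44.4% of the members' low islands. Most of the 10 that stayed under 10% lie within 1 kb of an annotated transcript start. Islands of Grik3, Grin2a, Grin2c and Grm4 among them reach such a start. Islands that rose can lie as close, such as those of Grm4 (306 bp) and Grm2 (272 bp). The 5 at 50% or more were those of Grm4 (94.43%), Grin3b (84.2%), Grm2 (75.1%), Grm5 (74.1%) and Grik4 (66.0%), each overlapping coding sequence. By class they were 3 of 5 low islands of metabotropic, 2 of 18 of ionotropic and 0 of 4 of GABA receptor genes. Beside the 14.7% of all genes, these numbers are too small to set the classes apart. In Tet/Tet neurons all 20 low islands that could be read were under 15%, between 0.196% and 14.4%, as were 3247 of the 3433 such islands of all genes.

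**Figure D5:**
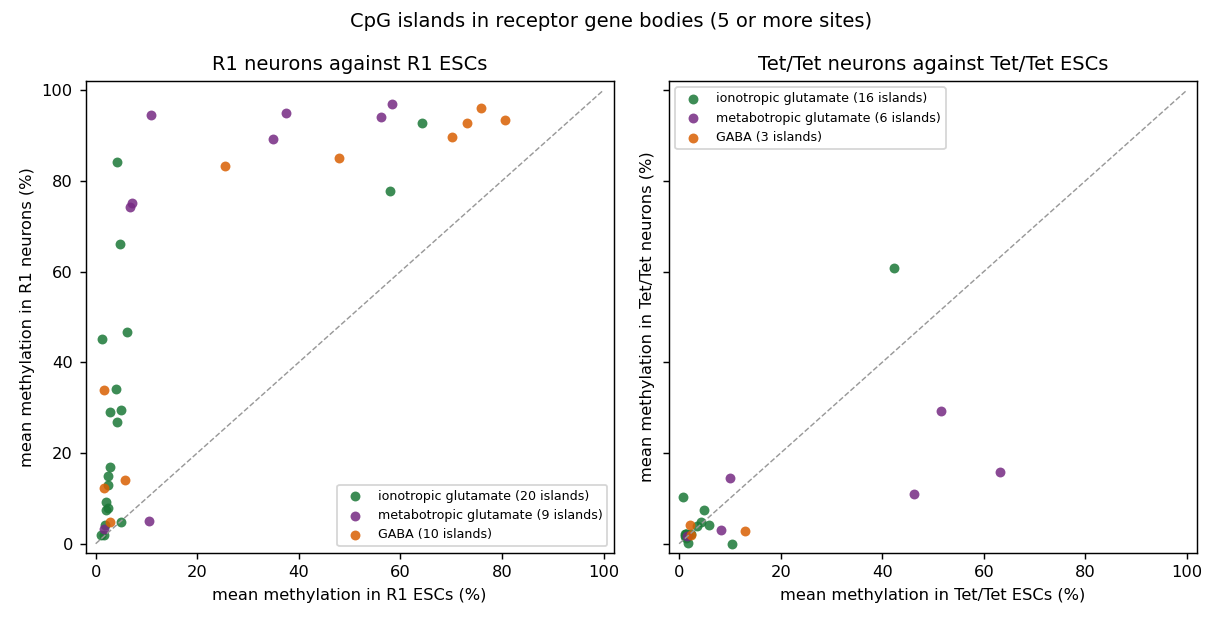
Mean methylation (%) of CpG islands in receptor gene bodies in neurons against ESCs, for R1 (left, 39 islands) and Tet/Tet (right, 25 islands), with 1 point per island, colours for the receptor class and a dashed line of equality. Low islands spread from 1.85% to 94.43% on the left, while on the right 1 island, in Grid1, lies above 50%.

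Grm4 and Grin2d held contrasting patterns within a single gene. In Grm4 an island of 143 shared sites at an alternative transcript start read 1.57%, 1.56%, 3.16% and 1.66% in library order. The coding island printed above, 10 sites, read 10.8%, 10.0%, 94.43% and 14.4%, and in R1 neurons none of its sites was under 83.3%. In Grin2d the printed stretch of exon 1 had 29 sites, at 1.24%, 1.67%, 2.07% and 1.25%, with none above 8.28% in any library. The island that holds it lies 479 bp from an annotated transcript start, and is gene body only by the start used here. The printed stretch of exon 2 had 15 sites, at 9.77%, 3.99%, 83.8% and 11.7%, and R1 neurons were above R1 ESCs at all 15. The island at the 3′ end of Grin2d, with 118 sites, took a middle place with 2.88%, 1.73%, 16.9% and 2.01%.

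Intermediate gains marked several other islands, of ionotropic and of GABA receptor genes. Between 10% and 50% in R1 neurons were 9 of 18 low islands of ionotropic and 3 of 4 of GABA receptor genes. For metabotropic receptor genes it was 0 of 5, and for all genes 20.8%. Grin2a rose from 6.07% in R1 ESCs to 46.6% in R1 neurons in a coding island of 22 sites, whereas its island nearer the start, 29 sites, read 5.01% and 4.803%. Grin1 showed 29.5% and 14.9% in R1 neurons in its coding islands of 28 and 17 sites, Grik2 34.1% in 22 sites, and Grik5 13.0% in 84 sites at its 3′ end. In Grid1 an intronic island of 15 sites stood at 29.0%. Among GABA receptor genes, islands of Gabra5 (10 sites), Gabbr1 (40 sites) and Gabbr2 (10 sites) read 33.9%, 14.1% and 12.3% in R1 neurons. Grin2b had 1.86% in R1 neurons in an intronic island of 16 sites close to its start, and Gabrb1 4.75% in 25 sites of a coding island. In Gabrg3, 4 intronic islands were already methylated in R1 ESCs, between 70.1% and 80.5%, and read 89.6% to 96.0% in R1 neurons.

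Body levels in Tet/Tet neurons were below those of Tet/Tet ESCs in 21 of 22 members. This share was not computed for all genes, whose median difference was -23.3 points. The remaining member was Gabbr1, at 4.32% in the ESCs and 6.48% in the neurons, with 57 of its 91 sites higher and 15 lower. From Tet/Tet ESCs to Tet/Tet neurons 18 of 22 members were lower by at least 10 points, where 74.6% of all genes were, and none was higher, beside 0.461%. The same 18 were higher by at least 10 points from R1 ESCs to R1 neurons, where 74% of all genes moved in both of these ways. Grm3 fell from 59.2% to 9.37%, Gria1 from 61.7% to 17.6% and Gabbr2 from 57.3% to 15.8%. Besides Gabbr1, the members that did not reach 10 points were Grin1, Grin2c and Grin2d, already at 16.4%, 10.1% and 8.67% in Tet/Tet ESCs. In Grin1 the drop was 9.50 points, short of the limit, and Gria2, just past it, fell by 10.7 points. Over the 3153 body sites with 4 libraries, 1.90% were above 50% in Tet/Tet neurons, against 68.1% in R1 neurons.

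The intronic Grid1 stretch printed above was picked for its level in Tet/Tet neurons. On average it was not lower there than in either ESC library, but it was below R1 neurons at all 6 sites. Its 6 sites averaged 58.0% ± 34.03, 42.2% ± 27.5, 77.8% ± 37.9 and 60.7% ± 32.5, and 5 of the 6 were at 50% or more in Tet/Tet neurons. The sixth, at the 3′ end of the printed sequence, read 0%, 6.67%, 2.08% and 0%. The Grin2b stretch kept 27.1% ± 16.7 in Tet/Tet neurons over 11 sites, against 96.9% ± 2.05 in R1 neurons.

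Between the ESC lines the median difference of receptor gene bodies was 0.91 points over 30 members, beside 1.24 points for all genes. This depended on the sites used, since with each library's own sites the median was 6.24 points and 8 members were higher by at least 10 points. The share of all genes was not computed with own sites. With shared sites 1 member was called, Gria4, at 41.7% ± 35.1 in R1 and 53.8% ± 36.8 in Tet/Tet ESCs over 22 sites, where 8.47% of all genes were higher and 2.62% lower by at least 10 points. Its difference was 12.1 points and, with each library's own sites in place of shared ones, -3.62 points. No member was lower by 10 points. The printed Grin2b stretch averaged 35.3% ± 18.5 in ESCs of R1 and 53.7% ± 15.2 in those of Tet/Tet, higher in Tet/Tet at all 11 sites. Differences in single islands went either way. An intronic island of Grik1, 7 sites, read 64.3% ± 24.4 in R1 and 10.4% ± 12.2 in Tet/Tet ESCs. A coding island of Gabbr2, 10 sites, read 1.71% ± 2.70 and 13.0% ± 31.6, so its sites were very uneven in Tet/Tet ESCs.

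For comparison, 31 genes of glutamate and GABA handling (transporters, synthetic enzymes, scaffolds and auxiliary subunits) were examined in the same way. Near the start 23 had at least 10 sites. In R1 neurons 5 of the 23 were at least 10 points above R1 ESCs, beside the 20.2% of all genes: Slc32a1, the vesicular GABA transporter, by 23.4 points, Slc17a6, a vesicular glutamate transporter, by 22.7, the GABA transporter Slc6a11 by 21.9, the AMPA auxiliary subunit gene Cacng3 from 5.52% to 25.5% and the glutamate transporter Slc1a1 by 16.2. In Tet/Tet neurons 5 of 20 were lower than in R1 neurons by at least 10 points, beside 20.7% of all genes, namely Slc6a11, Slc17a6, Slc32a1, Slc1a1 and the vesicular glutamate transporter Slc17a7, which read 26.5% and 7.42%. None was called in ESCs, beside 1.06% of all genes higher and 0.466% lower at starts and 8.47% and 2.62% in bodies. In the bodies 29 of 30 were at least 10 points higher in R1 neurons than in R1 ESCs, beside 94.3% of all genes, and 25 of 26 were lower by that much in Tet/Tet than in R1 neurons, beside 95.7%.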

How the data were processed

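RRBS libraries were made from ESCs and neurons of the R1 and Tet/Tet lines, 1 library per condition. The authors digested DNA with MspI, trimmed reads with Trim Galore 0.6.4, checked them with FastQC 0.11.8, mapped them to mm10 with Bismark 0.19.0 and called CpGs with MethylDackel 0.3.0. The deposited tables give, per CpG, the percent of reads reporting cytosine, with no read totals and no normalization between libraries. Neuron DNA was prepared with a column kit per the labels and by phenol and chloroform extraction per the methods of the study.

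Members and lists were chosen with earlier results of these data known, and every member is named. Genes came from GENCODE M21 on GRCm38. A gene needed 10 CpGs listed in all 4 tables (3 where Tet/Tet neurons were not analysed), was given the unweighted mean over its sites, and was called at a difference of 10 points. CpG islands were defined as stretches of over 200 bp in which GC made up 50% or more and CpGs reached over 0.6 of the number expected from base composition. Other stretches were non-overlapping windows of 200 bp with at least 6 sites. Printed stretches avoid UTRs, come from members analysed in all 4 libraries and were picked by the size of a difference or level. The start window parts were chosen after their values were seen. MspI selects CpG-rich fragments, so island sites weigh heavily in gene body means. Site depth is unknown, so a site read few times counts as much as any other. No test was made, since 1 library per condition leaves no replicate error. Alternatives changed the sites, the site minimum, the window, the starts, the averaging and the size of a call. Python 3.11.15, numpy 2.4.6, numba 0.67.0 and matplotlib 3.10.9 were used, and the calculation was tested on simulated data.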

Additional observations from a re-analysis of the deposited data

Results flagged for a closer look

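Between ESCs and neurons, the gene bodies of 18 of 22 receptor genes moved by at least 10 points in opposite directions in the lines, higher in R1 and lower in Tet/Tet, as did 74% of 9768 genes. With 1 library per condition the difference between the lines was not tested. The change from ESCs to neurons in Tet/Tet less that in R1 was -77.3 for Gria1, -56.8 for Gria2, -71.4 for Grik1, -68.8 for Grik3, -43.6 for Grik5, -66.1 for Grid1, -47.5 for Grin2a, -67.6 for Grin2b and -72.1 for Grin3a points among ionotropic glutamate receptor genes. Among metabotropic glutamate receptor genes it was -87.2 for Grm3, -41.8 for Grm4, -70.3 for Grm6, -77.6 for Grm7 and -67.0 for Grm8 points. Among GABA receptor genes it was -54.7 for Gabrb1, -50.5 for Gabrb2, -75.4 for Gabrd and -69.98 for Gabbr2 points. Grm3 had the greatest of these gaps, over 22 shared sites, with 37.4 points gained in R1 and 49.8 points lost in Tet/Tet. Grm4 had the smallest. For all genes with enough sites the median change was 40.1 points gained in R1, over 12273 genes. In Tet/Tet it was 23.3 points lost, over the 9768 genes with 4 libraries.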

How the results depend on the processing

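Start-site members higher in R1 neurons than in R1 ESCs, 5 as reported, were 8 with each library's own sites, 9 at a minimum of 5 sites, 3 at 20 sites, 3 within MspI fragments of 40 to 220 bp, 10 with 1 site per 100 bp, 9 with all transcript starts, 8 within 2 kb, 10 at a call of 5 points and 0 at 25 points. Start-site members lower in Tet/Tet than in R1 neurons, 3 as reported, were 8 with sites shared by the compared libraries, own sites, 5 sites or a call of 5 points, 6 with 1 site per 100 bp or 2 kb, 7 with all starts, 1 within 500 bp and 0 at 25 points. In ESCs, 2 starts were higher and 2 lower at 5 sites, and 1 was higher within 2 kb. From Tet/Tet ESCs to neurons, 2 starts were lower at 5 sites and 1 each with shared sites, own sites, all starts and 2 kb, and the median with all starts was -1.31 points. Body members higher in Tet/Tet ESCs, 1 as reported, were 8 with own sites, 2 at 5 sites, 0 in MspI fragments, 7 with medians over sites, 0 with 1 site per 100 bp, 3 with all starts, 5 at 5 points and 0 at 25 points, and their median was 6.24 points with own sites. The body median from R1 ESCs to R1 neurons was 49.8 points with medians over sites. Gria4 turned from 12.1 to -3.62 points in ESCs with own sites. The causes were not tested. All alternatives were run on the members only, so their counts have no share of all genes beside them. The number of members with enough sites also changed with the site settings. In gene bodies, 195 of 196 member values for Tet/Tet against R1 neurons and 264 of 265 for R1 neurons against R1 ESCs kept their direction and their side of 10 points. Counting Gabra4 and Gabrb1 once at their starts was chosen after seeing the data. No paired analysis was possible because each condition has 1 library.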
